A study of Mus musculus with 14 samples.

Results

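Macrophage transcripts were followed through 14 mammary tumors of MMTV-PyMT mice by means of 10 genes, *Csf1r*, *Adgre1*, *Cd68*, *Mertk*, *Mrc1*, *Cd163*, *C1qa*, *C1qb*, *C1qc* and *Arg1*, which were chosen by name as genes that mark macrophages or their states. All 10 were present in both count tables, among 17702 genes in the *Lats2* table, 17763 in the *Lats1* table and 17232 in both. MMTV-PyMT mice express the polyomavirus middle T antigen in the mammary epithelium and develop tumors that resemble luminal B breast cancer. *Lats2*-CKO PyMT mice lacked exon 5 of *Lats2* and *Lats1*-CKO PyMT mice lacked exon 4 of *Lats1*, in each case through a Cre recombinase driven by the MMTV promoter, so that the deletion was aimed at mammary cells and not at macrophages. Each of the 2 experiments compared 4 such tumors with 3 tumors of nondeleted PyMT littermates (WT-PyMT) of 3 months of age, with 1 tumor taken per mouse. In the *Lats2* experiment WT-PyMT 14, WT-PyMT 2 and *Lats2*-CKO 7 were adenomas and the remaining 4 tumors were carcinomas. In the *Lats1* experiment WT-PyMT 20, WT-PyMT 22 and *Lats1*-CKO 27 were adenomas, WT-PyMT 17, *Lats1*-CKO 18 and *Lats1*-CKO 14 were carcinomas, and *Lats1*-CKO 21 was an adenosquamous carcinoma. The experiments shared no tumor. Below, *Lats2*-CKO 1 stands for the library so labelled.

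Macrophages are phagocytes that settle in every tissue from embryonic precursors or from blood monocytes, and they depend on the receptor CSF1R and its ligands CSF1 and IL-34. In the mammary gland they surround ducts and fat cells and take part in branching and involution. In PyMT tumors they are known as an abundant part of the stroma that aids progression to carcinoma. Tumor macrophages are often described along a range from classical activation, with nitric oxide and interleukin production, to alternative activation, with scavenger receptors, lectins and arginase.

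The samples held pieces of whole tumors. Total counts per library ranged from 18593864 to 31909282, with a median of 24135744. *Lats1* lay between 102.3 and 124.2 CPM (counts per 1000000, with TMM scaling over all 14 libraries) in the WT-PyMT tumors of its experiment and between 32.1 and 37.3 CPM in the *Lats1*-CKO tumors. *Lats2* lay between 23.8 and 55.9 CPM in the WT-PyMT tumors of its experiment and between 8.49 and 16.4 CPM in *Lats2*-CKO 7, 16 and 8. The library labelled *Lats2*-CKO 1 held 33.7 CPM of it, a value among those of the controls. The epithelial marker *Epcam* was between 663.7 and 1411 CPM in 13 libraries and 241.6 CPM in WT-PyMT 14. Some libraries stood apart. WT-PyMT 14 and, less far, WT-PyMT 22 held many lymphocyte transcripts, and *Lats2*-CKO 7 held skeletal muscle transcripts (a sum of 2417 CPM over 8 genes, against at most 787.9 CPM elsewhere). In the *Lats1* experiment these muscle genes summed to 787.9 CPM in *Lats1*-CKO 21, 242.6 CPM in WT-PyMT 17 and 192.2 CPM in *Lats1*-CKO 14. *Lats1*-CKO 21 also held 416.6 CPM over 8 squamous keratinocyte genes, against at most 63.5 CPM elsewhere.

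Complement component C1q is the recognition molecule of the classical complement pathway and is made in tissues largely by macrophages. *C1qa*, *C1qc* and *C1qb* encode its chains and lie next to each other on the minus strand of chromosome 4, from 136895917 to 136898803, from 136889804 to 136893065 and from 136880129 to 136886187 (GRCm38, GENCODE vM21). *Csf1r* encodes the CSF1 receptor. *Cd68* (chromosome 11, 69664213 to 69666153) encodes a lysosomal glycoprotein, and *Adgre1* (chromosome 17, 57358691 to 57483527) encodes F4/80, the antigen by which mouse macrophages are commonly recognized. *Mertk* (chromosome 2, 128698956 to 128802894) encodes a receptor kinase for the uptake of dying cells. *Mrc1* (chromosome 2, 14229392 to 14332057) encodes the mannose receptor CD206, and *Cd163* (chromosome 6, 124304656 to 124330527) the receptor for hemoglobin bound to haptoglobin. *Arg1* (chromosome 10, 24915221 to 24927484) encodes arginase 1, which splits arginine into ornithine and urea and is also strong in other myeloid cells and in liver.

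PU.1, encoded by *Spi1*, is the transcription factor on which macrophage genes commonly depend, and its sites commonly contain the letters GAGGAA. Promoter sequence of RefSeq (GRCm38.p6) was held for 6 of the 10 genes, and the stretches before the first annotated exon are shown for the 4 of them that carried this hexamer on either strand, because they include genes that went together across the tumors (*C1qb*, *C1qc*, *Cd68*) and one that went apart (*Mrc1*). They are written 5′ to 3′ on the strand of the gene, at chr4:136886201-136886450 (minus strand) for *C1qb*, chr4:136893066-136893164 (minus) for *C1qc*, chr11:69666171-69666420 (minus) for *Cd68* and chr2:14229164-14229391 (plus) for *Mrc1*, with GAGGAA or its reverse complement TTCCTC in capitals.
C1qb: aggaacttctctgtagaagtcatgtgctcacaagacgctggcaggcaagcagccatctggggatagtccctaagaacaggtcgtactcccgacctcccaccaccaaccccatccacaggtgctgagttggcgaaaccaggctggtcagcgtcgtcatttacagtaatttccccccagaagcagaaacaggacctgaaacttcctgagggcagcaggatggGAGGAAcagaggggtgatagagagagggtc
C1qc: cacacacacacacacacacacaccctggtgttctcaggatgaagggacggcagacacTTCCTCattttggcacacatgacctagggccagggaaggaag
Cd68: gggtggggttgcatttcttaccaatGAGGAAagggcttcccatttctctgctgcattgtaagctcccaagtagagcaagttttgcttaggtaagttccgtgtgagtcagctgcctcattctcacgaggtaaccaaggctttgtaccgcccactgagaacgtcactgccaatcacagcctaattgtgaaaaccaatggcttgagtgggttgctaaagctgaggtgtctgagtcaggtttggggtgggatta
Mrc1: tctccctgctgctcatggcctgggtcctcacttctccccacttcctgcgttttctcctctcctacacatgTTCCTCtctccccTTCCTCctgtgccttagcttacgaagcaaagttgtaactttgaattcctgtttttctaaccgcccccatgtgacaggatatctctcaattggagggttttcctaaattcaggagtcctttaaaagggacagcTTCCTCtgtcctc
*Mrc1* held the hexamer 3 times and *C1qb*, *C1qc* and *Cd68* once each, whereas the windows of *Mertk* and *Cd163* held none. Over all 32851 promoter windows, each of the full 250 bases before the start, 23.3% held it on either strand. The stretches of *C1qc*, *Mrc1* and *Cd163* before the exon are shorter, at 99, 228 and 235 bases, so that these shares are not like for like with them. The longer form GAGGAAGT, which contains the hexamer, was found in *C1qc* alone among the 6 and in 2.44% of all windows. These matches describe letters and not bound sites.

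Per kilobase of annotated exon the order of mean levels over the 14 tumors was *C1qa* (116.1 CPM per kb), *C1qb* (97.0), *Arg1* (64.1), *C1qc* (42.5), *Cd68* (21.4), *Csf1r* (13.7), *Adgre1* (6.44), *Mertk* (2.94), *Mrc1* (2.48) and *Cd163* (1.09). Neighbors in this order overlapped in their ranges over the libraries: *C1qa* lay between 78.2 and 211.5 CPM per kb and *C1qb* between 63.9 and 176.2. Every gene was well counted in every library, the lowest being 51 counts of *Cd163* in WT-PyMT 1. *Csf1r* lies on chromosome 18 (61100598 to 61132149), and 873 bases of its exons overlap *Hmgxb3* on the opposite strand, so that reads of both genes cannot be told apart there without strand.

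**Figure D1:**
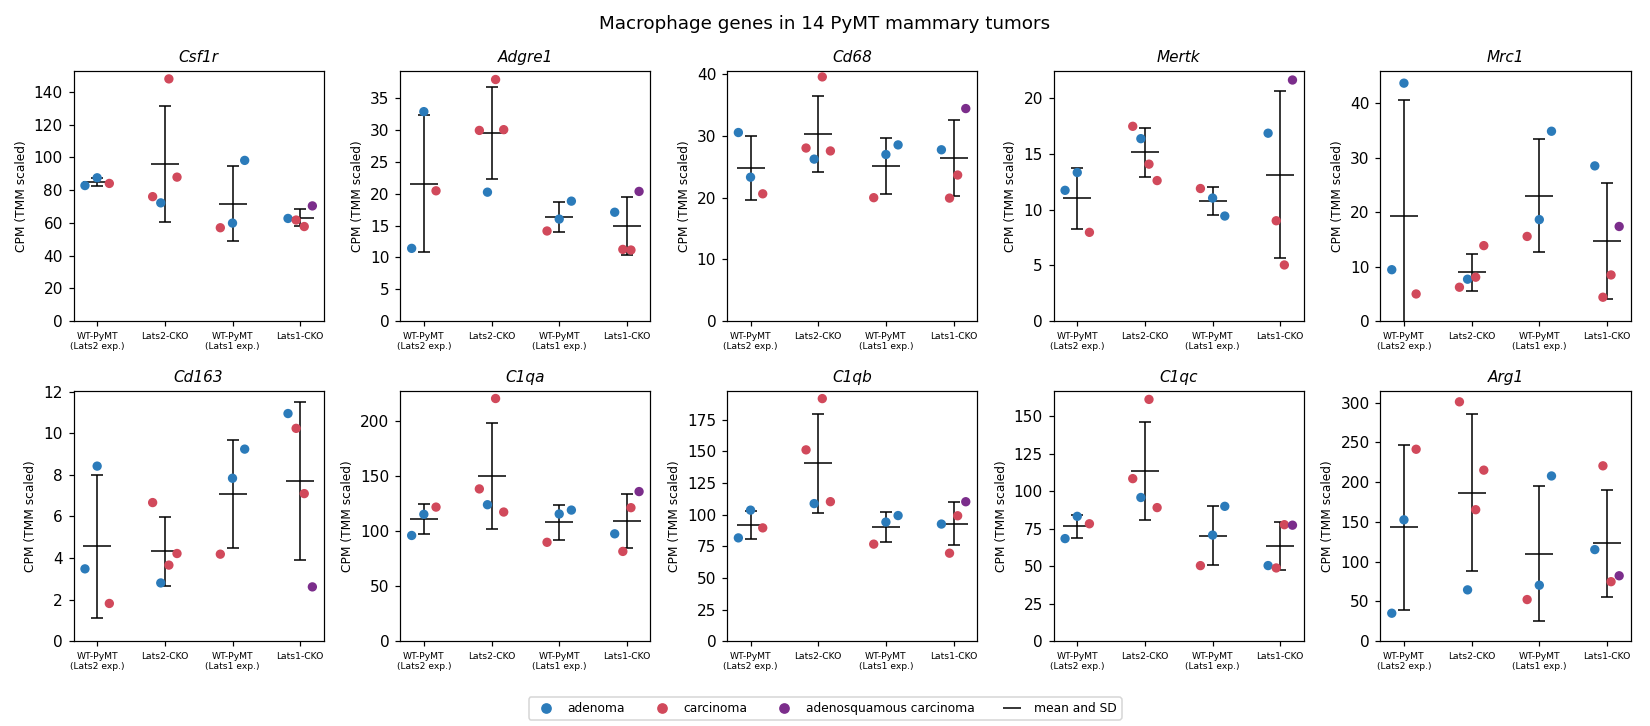
Level of each of the 10 macrophage genes in CPM (vertical axis, from 0) in each tumor, grouped by experiment and genotype (3 or 4 tumors per group). Points are tumors colored by histology, and bars give the mean and SD, the lower bar of *Mrc1* being cut at 0; *C1qb* and *C1qc* are the genes in which *Lats2*-CKO tumors lie above all WT-PyMT tumors of their experiment.

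Deletion of *Lats2* was examined first. None of the 10 genes passed the test (edgeR quasi-likelihood test, Benjamini-Hochberg adjusted p between 0.688 and 0.973), nor did any with DESeq2. In this comparison 0% of all 17702 genes passed with edgeR and 0.78% with DESeq2. The estimates of 8 genes were above 0 and those of *Mrc1* and *Cd163* below 0, with a median log2 fold change of 0.41 against -0.0028 over all genes. *C1qb* and *C1qc* were the 2 genes at an unadjusted p under 0.05, both with higher estimates, and also the 2 whose groups did not overlap. Of all genes 7.08% reached that unadjusted level, and groups did not overlap in 1.43% with *Lats2*-CKO higher and in 2.26% with *Lats2*-CKO lower.

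*C1qb* was at 81.6, 103.5 and 89.5 CPM in WT-PyMT 14, 2 and 1, and at 151.2, 108.7, 191.7 and 110.2 CPM in *Lats2*-CKO 1, 7, 16 and 8. All 4 *Lats2*-CKO tumors lay above all 3 controls, *Lats2*-CKO 7 and 8 by little. The log2 fold change was 0.63 (standard error 0.24), an unadjusted p of 0.0329 and an adjusted p of 0.688 from edgeR.
*C1qc* was at 68.4, 83.2 and 78.3 CPM in the WT-PyMT tumors and at 108.3, 95.8, 161.1 and 89.0 CPM in the *Lats2*-CKO tumors, in the same order. Again no tumor of one group reached into the other. Its log2 fold change was 0.58 (standard error 0.23, edgeR adjusted p = 0.688). *C1qa* was at 95.8, 115.0 and 121.6 CPM in WT-PyMT and at 138.0, 123.7, 220.0 and 117.1 CPM in *Lats2*-CKO tumors. Here *Lats2*-CKO 8 lay between the controls, and the log2 fold change of 0.44 (standard error 0.25) gave an edgeR adjusted p of 0.712.

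*Lats2*-CKO 16, a carcinoma, held the highest level of all 14 tumors for *C1qa*, *C1qb*, *C1qc*, *Csf1r*, *Cd68* and *Adgre1*. Without it the log2 fold change of *C1qb* was 0.44, that of *C1qc* 0.36 and that of *C1qa* 0.20, and the edgeR unadjusted p of the first 2 was 0.0672 and 0.0658. The unadjusted p of *C1qb* and *C1qc* also rose above 0.05 with edgeR without WT-PyMT 14 (0.0832 and 0.101), without WT-PyMT 1 (0.0921 and 0.0983) and without the library labelled *Lats2*-CKO 1 (0.0710 and 0.0652), and that of *C1qc* did so without WT-PyMT 2 (0.0635). With histology as a covariate *C1qb* was at 0.52 and *C1qc* at 0.49, with edgeR unadjusted p of 0.110 and 0.117. *Csf1r* was at 82.7, 87.5 and 84.0 CPM in WT-PyMT tumors and at 76.0, 72.2, 147.9 and 87.9 CPM in *Lats2*-CKO tumors. Its controls were almost level, and *Lats2*-CKO 7 and the library labelled *Lats2*-CKO 1 lay below them. The log2 fold change of *Csf1r* was 0.19 (standard error 0.27) with all tumors and -0.10 without *Lats2*-CKO 16.

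*Cd68* was at 30.6, 23.3 and 20.6 CPM in WT-PyMT and at 28, 26.2, 39.6 and 27.6 CPM in *Lats2*-CKO tumors, with WT-PyMT 14 above 3 of the latter, and the estimate was 0.30 (standard error 0.23) on the log2 scale. *Adgre1* was at 11.4, 32.9 and 20.5 CPM in WT-PyMT 14, 2 and 1 and at 30.0, 20.3, 38.0 and 30.1 CPM in *Lats2*-CKO 1, 7, 16 and 8. The lowest value belonged to WT-PyMT 14, whose omission left a log2 fold change of 0.15 in place of 0.46 (standard error 0.39), and the next-highest of the experiment to WT-PyMT 2. *Mertk* ranged from 7.96 to 13.3 CPM in WT-PyMT tumors and from 12.6 to 17.5 CPM in *Lats2*-CKO tumors, and only *Lats2*-CKO 8 lay within the range of the controls (log2 fold change 0.47, standard error 0.27). *Arg1* was at 35.2, 152.7 and 241.4 CPM in the WT-PyMT tumors and at 301.1, 64.5, 165.4 and 215.2 CPM in the *Lats2*-CKO tumors, so that tumors of 1 genotype differed more than the genotypes did (log2 fold change 0.39, standard error 0.69).

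The estimate for *Mrc1* had the opposite sign. The gene was at 9.43, 43.7 and 4.98 CPM in WT-PyMT 14, 2 and 1 and at 6.21, 7.69, 8.05 and 13.9 CPM in *Lats2*-CKO 1, 7, 16 and 8. The high mean of the controls rested on WT-PyMT 2, and the other two lay within or below the range of the *Lats2*-CKO tumors. The log2 fold change was -1.11 (standard error 0.72, edgeR adjusted p = 0.733), and without WT-PyMT 2 it was 0.33. *Cd163* was at 3.48, 8.42 and 1.81 CPM in WT-PyMT tumors and at 6.66, 2.8, 3.66 and 4.21 CPM in *Lats2*-CKO tumors, with WT-PyMT 2 again the highest. Its log2 fold change was -0.07 (standard error 0.58).

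Since the library labelled *Lats2*-CKO 1 did not show lower *Lats2*, the comparison was repeated without it, which left log2 fold changes of 0.59 for *C1qb*, 0.60 for *C1qc* and -0.97 for *Mrc1*. Without WT-PyMT 14 and *Lats2*-CKO 7 together they were 0.65, 0.57 and -1.38. No gene of the 10 passed the test in either case.

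**Figure D2:**
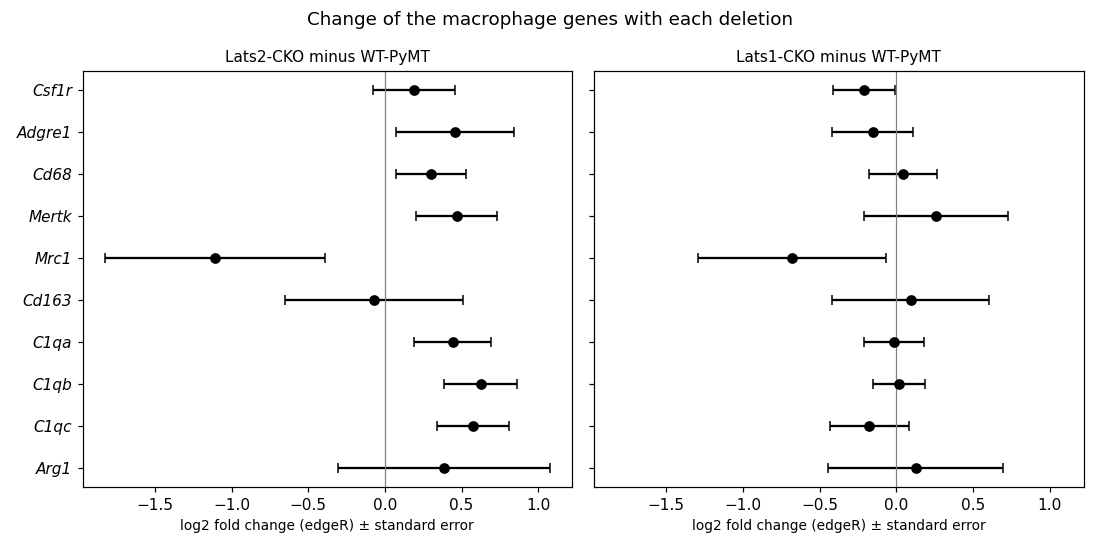
Log2 fold change of each gene (horizontal axis, edgeR, with standard error as bars) in *Lats2*-CKO (left) and *Lats1*-CKO tumors (right), each against the 3 WT-PyMT tumors of its own experiment. Values for *C1qb* and *C1qc* are 0.63 and 0.58 on the left and 0.02 and -0.18 on the right, and *Mrc1* has the lowest value on both sides.

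Deletion of *Lats1* was examined in the same way. None of the 10 genes passed with edgeR (adjusted p between 0.701 and 0.985) or DESeq2, and none reached an unadjusted p under 0.05 with edgeR. Over all 17763 genes 0.0225% passed with edgeR, 3.31% with DESeq2, and 11.3% were at an unadjusted p under 0.05. The estimates of 5 genes were above 0 and those of 5 below, with a median log2 fold change of 0.00054 against -0.0029 over all genes. No gene of the 10 had groups that did not overlap, against 4.88% of all genes with *Lats1*-CKO higher and 6.47% with *Lats1*-CKO lower.

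*C1qa* was at 89.6, 115.3 and 118.8 CPM in WT-PyMT 17, 20 and 22 and at 97.3, 81.4, 121.0 and 135.6 CPM in *Lats1*-CKO 27, 18, 14 and 21 (log2 fold change -0.02, standard error 0.19). *C1qb* was at 76.7, 94.1 and 99.3 CPM in WT-PyMT and at 92.5, 69.5, 99.1 and 110.2 CPM in *Lats1*-CKO tumors (log2 fold change 0.02, standard error 0.17). In both, *Lats1*-CKO 18 was the lowest and *Lats1*-CKO 21 the highest tumor, with the controls in between. *C1qc*, at 50.3, 70.7 and 89.9 CPM in WT-PyMT and 50.4, 48.8, 77.6 and 77.3 CPM in *Lats1*-CKO tumors, gave -0.18 (standard error 0.26). *Csf1r* was at 57.0, 59.8 and 98.1 CPM in the controls and between 57.7 and 70.3 CPM in the *Lats1*-CKO tumors, where only WT-PyMT 22 stood clear of the rest (log2 fold change -0.21, standard error 0.20). *Cd68* (0.04) and *Adgre1* (-0.15) had log2 fold changes below their standard errors of 0.22 and 0.26.

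*Mrc1* was at 15.5, 18.6 and 34.9 CPM in WT-PyMT 17, 20 and 22 and at 28.5, 4.38, 8.47 and 17.4 CPM in *Lats1*-CKO 27, 18, 14 and 21. *Lats1*-CKO 18 and 14, both carcinomas, lay below all controls, and *Lats1*-CKO 27, an adenoma, lay above 2 of them. The log2 fold change was -0.68 (standard error 0.61, edgeR adjusted p = 0.701), and -0.24 without WT-PyMT 22. *Cd163* was at 4.18, 7.83 and 9.23 CPM in the controls and at 10.9, 10.2, 7.09 and 2.61 CPM in the *Lats1*-CKO tumors (log2 fold change 0.09, standard error 0.51). *Lats1*-CKO 18 thus had the lowest *Mrc1* of all 14 tumors and a *Cd163* level above every control. *Mertk* ranged from 9.43 to 11.9 CPM in WT-PyMT tumors but from 5.03 CPM in *Lats1*-CKO 14 to 21.6 CPM in *Lats1*-CKO 21, a wider spread around a log2 fold change of 0.26 (standard error 0.47). *Arg1* was at 52.3, 70.4 and 207.8 CPM in the controls and at 115.2, 220.6, 74.8 and 82.3 CPM in *Lats1*-CKO tumors (log2 fold change 0.13, standard error 0.57).

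Whether the 2 deletions differed was tested directly over all 14 libraries, by subtracting the change in *Lats2*-CKO from that in *Lats1*-CKO tumors. None of the 10 genes passed with edgeR (adjusted p between 0.913 and 0.974) or DESeq2, where 0.0174% and 0.0929% of all 17232 genes did, and none was at an unadjusted p under 0.05 with edgeR, as 3.16% of all genes were. The values nearest to it were those of *C1qc* (-0.71, standard error 0.36, edgeR unadjusted p = 0.0695) and *C1qb* (-0.57, standard error 0.30, edgeR unadjusted p = 0.0782). Thus the higher *C1qb* and *C1qc* estimates in *Lats2*-CKO tumors were not shown to be particular to that deletion.

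Apart from genotype, the genes differed in how they varied from tumor to tumor. The SD of log2 CPM within groups was 0.29 for *C1qb*, 0.30 for *Cd68*, 0.32 for *C1qa*, 0.33 for *Csf1r*, 0.35 for *C1qc*, 0.47 for *Adgre1*, 0.56 for *Mertk*, 0.81 for *Cd163*, 1.03 for *Arg1* and 1.04 for *Mrc1*. The median over the 13924 genes with a mean of at least 1 CPM was 0.34. *C1qb*, *Cd68*, *C1qa*, *Csf1r* and *C1qc* lay between percentiles 42.3 and 51.1 of these genes and thus varied within groups like a typical gene. *Adgre1* lay at percentile 62.6, *Mertk* at 68.8, *Cd163* at 80.8, *Arg1* at 87.1 and *Mrc1* at 87.2. From the lowest to the highest tumor *Cd68* spanned 1.99-fold, *C1qa* 2.7-fold, *Arg1* 8.56-fold and *Mrc1* 9.98-fold.

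The C1q chains kept close to each other. The SD of the log2 ratio of *C1qa* to *C1qb* was 0.17 over the 7 libraries of the *Lats2* experiment and 0.08 over those of the *Lats1* experiment, where counting alone would give 0.04. These were the closest of the 45 pairs of the 10 genes, together with *C1qa* to *C1qc* (0.10 and 0.17) and *C1qb* to *C1qc* (0.10 and 0.23). Of all C1q counts, 4059 to 14724 per library, *C1qa* took between 34.7% in the library labelled *Lats2*-CKO 1 (95% Wilson interval 33.9% to 35.6%) and 42.0% in WT-PyMT 1 (40.9% to 43.1%). *C1qc* took between 21.0% in *Lats1*-CKO 27 (19.9% to 22.1%) and 29.2% in WT-PyMT 22 (28.2% to 30.2%). The shares thus differed between single libraries by more than counting error, which is all that these intervals cover.

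Pairs that joined the C1q chains to *Csf1r* or *Cd68* had a mean SD of the log2 ratio over the experiments between 0.22 and 0.31. The widest pair was *Mrc1* to *Arg1*, with 1.57 and 1.35. *Arg1* was lowest in WT-PyMT 14 and highest in the library labelled *Lats2*-CKO 1, whereas *Mrc1* was lowest in *Lats1*-CKO 18 and highest in WT-PyMT 2. All libraries share the polyadenylated library method, and the ratios of low genes carry more counting error, up to 0.17 for *Mrc1* to *Cd163*.

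**Figure D3:**
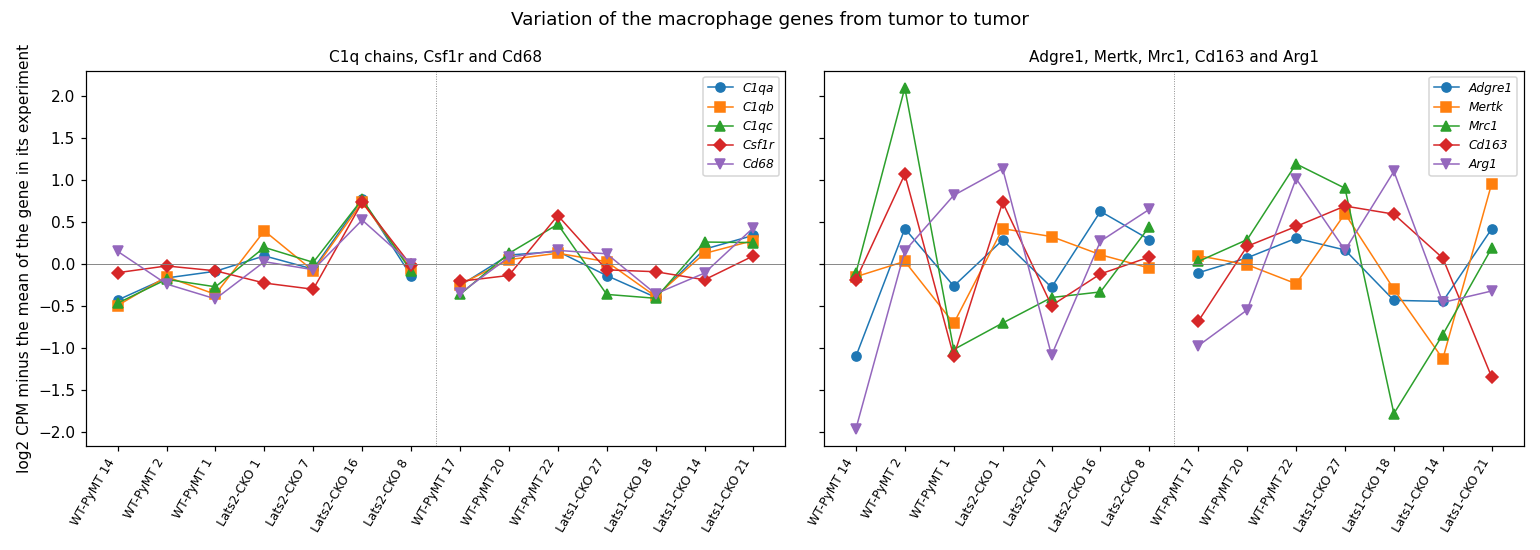
Log2 CPM of each gene minus its mean over the 7 tumors of the experiment (vertical axis), tumor by tumor (horizontal axis, the dotted line parting the experiments). The C1q chains, *Csf1r* and *Cd68* (left) stay near one another and peak in *Lats2*-CKO 16, while on the right *Adgre1* also peaks in *Lats2*-CKO 16 and *Mrc1*, *Cd163* and *Arg1* depart furthest from the other genes.

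The mean profile of the 10 genes (log2 CPM centred within each experiment) was compared with 13914 other genes by the root-mean-square difference over the 14 libraries. The 8 nearest were *Sh3rf1* (0.19), *Ppp1r2* (0.21), *Rab3il1* (0.22), *Tpm4* (0.22), *Mtmr11* (0.23), *Grk5* (0.23), *Slamf9* (0.23) and *Tnfrsf10b* (0.24), against a median of 0.44 over all genes compared. Of the 10 genes themselves *Adgre1* (0.22) and *C1qb* (0.22) were nearest to their mean and *Mrc1* (0.82) was farthest. A gene that hardly varies also scores low here, since the mean profile itself had a root-mean-square of 0.29.

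Carcinoma was next compared with adenoma over all 14 tumors with the 4 groups as covariates. None of the 10 genes passed with edgeR (adjusted p between 0.928 and 0.998) or DESeq2, where 0% and 0.255% of 17232 genes did, and none was at an unadjusted p under 0.05 with edgeR, as 3.56% of all genes were. *Mrc1* came nearest. It ranged from 7.69 to 43.7 CPM (median 23.6) in the 6 adenomas and from 4.38 to 17.4 CPM (median 8.26) in the 8 carcinomas. The 4 highest tumors, WT-PyMT 2, WT-PyMT 22, *Lats1*-CKO 27 and WT-PyMT 20, were all adenomas, while WT-PyMT 14 and *Lats2*-CKO 7, also adenomas, lay among the carcinomas. The log2 difference was -1.11 (standard error 0.54, edgeR unadjusted p = 0.0634, DESeq2 unadjusted p = 0.0251 and adjusted p = 0.585), and it lay between -1.51 and -0.76 when each library in turn was left out.

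Relative to *Csf1r*, *Mrc1* gave 10.7 to 49.9 counts per 100 counts of *Csf1r* in adenomas and 5.45 to 27.3 in carcinomas. *Cd163* ranged from 2.8 to 10.9 CPM (median 8.13) in adenomas and from 1.81 to 10.2 CPM (median 4.20) in carcinomas, a log2 difference of -0.69 (standard error 0.47). For the C1q chains the log2 differences were 0.11, 0.03 and 0.06 for *C1qa*, *C1qb* and *C1qc*, with standard errors between 0.18 and 0.22, and *Adgre1* was at -0.01 (standard error 0.28). *Arg1* was at 35.2 to 207.8 CPM in adenomas and 52.3 to 301.1 CPM in carcinomas (log2 difference 0.56, standard error 0.59).

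**Figure D4:**
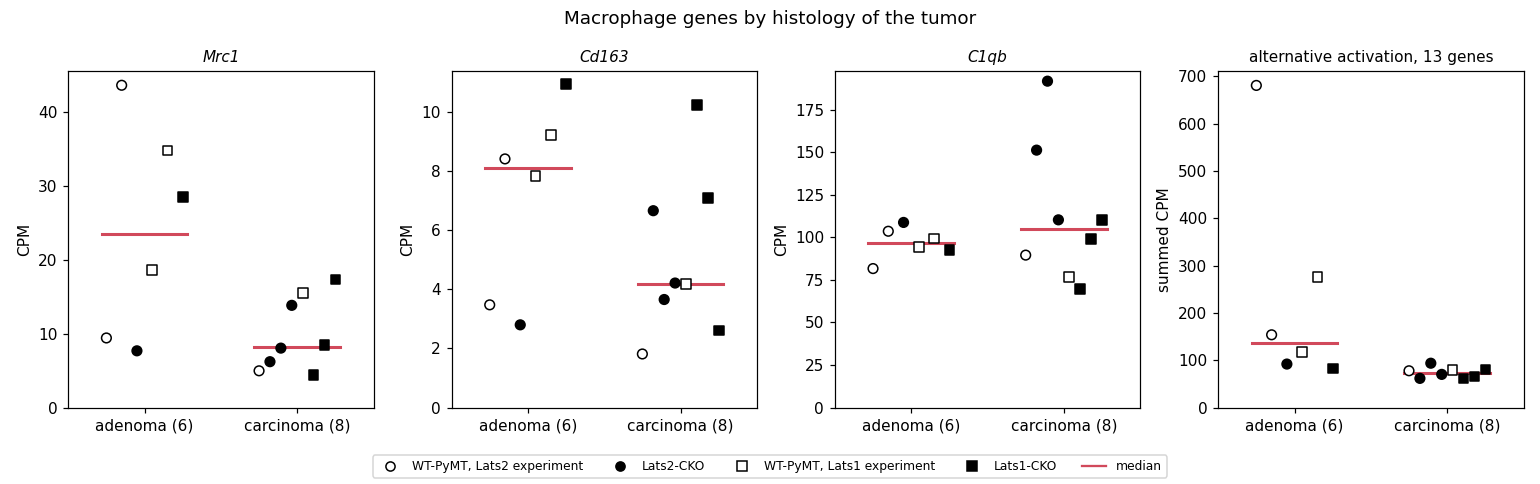
Level of *Mrc1*, *Cd163* and *C1qb* in CPM and the summed CPM of 13 alternative activation genes (vertical axes, from 0) in 6 adenomas and 8 carcinomas, the adenosquamous carcinoma counted as carcinoma. Circles are the *Lats2* and squares the *Lats1* experiment, open symbols WT-PyMT and filled symbols deleted tumors, and the red lines are medians (*Mrc1* 23.6 against 8.26 CPM).

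The genes that regulate macrophages were looked at next. *Csf1*, the growth factor of macrophages, was at 52.5 to 86.6 CPM in the WT-PyMT tumors of the *Lats2* experiment and at 65.0 to 113.3 CPM in *Lats2*-CKO tumors, the highest again in *Lats2*-CKO 16 (log2 fold change 0.25, standard error 0.26). In the *Lats1* experiment it was at 56.4 to 66.8 CPM and 53.9 to 76.8 CPM (0.07, standard error 0.13). *Il34*, the other ligand of CSF1R, was between 1.1 and 8.16 CPM in all tumors. *Spi1* was at 36.9 CPM in WT-PyMT 14, at 17.7 CPM in WT-PyMT 22, at 17.5 CPM in *Lats2*-CKO 16 and between 5.56 and 10.4 CPM in the other 11. PU.1 is also made by B cells. Of the 12 genes of the CSF1 axis and macrophage transcription factors, 5 had higher and 7 lower estimates in *Lats2*-CKO and 4 higher and 7 lower among 11 measured in *Lats1*-CKO. None passed with edgeR (3 and 2 were at an unadjusted p under 0.05, against 7.08% and 11.3% of all genes). *Cebpa*, a factor of myeloid cells that fat cells also need, passed with DESeq2 in *Lats1*-CKO, as 3.31% of all genes did. Its edgeR log2 fold change was -0.50 (standard error 0.08, edgeR adjusted p = 0.144, DESeq2 adjusted p = 2.12e-06).

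Other macrophage markers were counted in the same way. Of 21, 13 had higher and 8 lower estimates in *Lats2*-CKO tumors, with a median log2 fold change of 0.43, and 7 had higher and 14 lower in *Lats1*-CKO tumors, with a median of -0.18. None passed with edgeR or DESeq2. The latter gave some of them no adjusted p, among them *Timd4* in both comparisons and *Marco* in *Lats1*-CKO. At an unadjusted p under 0.05 with edgeR were 2 and 3 of the 21, against 7.08% and 11.3% of all genes, and these had lower estimates. With libraries left out or histology as a covariate, 5 to 10 of the 21 were lower in *Lats2*-CKO (medians 0.11 to 0.46). In *Lats1*-CKO 7 to 16 were lower (medians -0.36 to 0.12). *Lyz2*, the lysozyme of myeloid cells, was at 716.6 CPM in WT-PyMT 14 and between 92.98 and 421.1 CPM elsewhere. *Timd4*, a phosphatidylserine receptor of resident macrophages, was at 54.3 CPM in WT-PyMT 14, at 37.2 CPM in WT-PyMT 22 and at most 1.3 CPM in the other 12 tumors. *Marco*, a scavenger receptor, was at 51.2 CPM in WT-PyMT 22 and at most 1.26 CPM elsewhere. *Spp1*, which encodes osteopontin and is also made by mammary epithelium, was at 255.3 to 10143 CPM, the highest being *Lats2*-CKO 7.

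The genes of alternative activation mostly had lower estimates. All 13 had lower estimates in *Lats2*-CKO tumors, with a median log2 fold change of -2.09, and 12 of 13 had lower ones in *Lats1*-CKO tumors, with a median of -1.72. None passed with edgeR. In *Lats2*-CKO 4 were at an unadjusted p under 0.05 with edgeR (7.08% of all genes). *Cd209a* and *Cd209d* passed there with DESeq2 (adjusted p = 0.0187 and 0.0374), as 0.78% of all genes did. In *Lats1*-CKO 3 were at an unadjusted p under 0.05 with edgeR (11.3% of all genes) and none passed with DESeq2. *Cd209a*, a lectin of dendritic cells and some macrophages, was at 11, 2.46 and 0.533 CPM in WT-PyMT 14, 2 and 1 and at 0.0322, 0.0475, 0.389 and 0.311 CPM in *Lats2*-CKO 1, 7, 16 and 8. Every control lay above every deleted tumor, though WT-PyMT 1 by little. *Ccl22*, a chemokine that dendritic cells make as well, was at 286.6 CPM in WT-PyMT 14, at 42.6 CPM in WT-PyMT 22 and at most 2.02 CPM in the other 12. The summed level of the list was 680.5 and 275.5 CPM in these tumors and between 61.2 and 153.7 CPM in the rest. *Il4ra* held the largest part of this sum, with a mean of 81.7 CPM over all 14 tumors against 142.1 CPM for the list. *Il4ra* reached 313.0 CPM in WT-PyMT tumors of the *Lats2* experiment and lay at 56.3 to 78.9 CPM in *Lats2*-CKO and 52.2 to 68.9 CPM in *Lats1*-CKO tumors. The sum thus says little about the low genes of the list. Without WT-PyMT 14 the list had 11 of 13 lower in *Lats2*-CKO with a median of -1.72, and without WT-PyMT 22 it had 9 of 13 lower in *Lats1*-CKO with a median of -0.72. The list moved with histology as well. In carcinomas against adenomas all 13 had lower estimates, with a median log2 fold change of -1.89 and 8 of them at an unadjusted p under 0.05 with edgeR (3.56% of all genes), and none passed with edgeR or DESeq2. The list summed to 82.6 to 680.5 CPM in adenomas and to 61.2 to 93.6 CPM in carcinomas. Without both WT-PyMT 14 and WT-PyMT 22, 12 of 13 were still lower in carcinomas (median -1.62, 6 at an unadjusted p under 0.05 with edgeR), and the median lay between -2.37 and -1.46 with each library left out in turn. The count of 8 was 3 without *Lats1*-CKO 27 and 5 without WT-PyMT 1 or WT-PyMT 17. In each experiment 2 of 3 controls but 1 of 4 deleted tumors were adenomas. With histology as a covariate 12 of 13 were lower in *Lats2*-CKO (median -0.84) and 11 of 13 in *Lats1*-CKO (median -1.24), with 0 and 2 lower genes at an unadjusted p under 0.05 and none that passed with edgeR. *Mrc1*, which is often counted among these genes, had the lowest log2 fold change of the 10 in both comparisons.

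Of the 11 genes of classical activation, 10 had lower estimates in *Lats2*-CKO and 6 in *Lats1*-CKO. None passed with edgeR (0 and 1 were at an unadjusted p under 0.05, against 7.08% and 11.3% of all genes). With libraries left out or histology as a covariate, 0 to 10 were lower in *Lats2*-CKO, with medians between -1.80 and 0.43. In *Lats1*-CKO 0 to 8 were lower, with medians between -0.23 and 0.67. The list summed to 1170 CPM in WT-PyMT 14 and to 181.4 and 358.0 CPM in WT-PyMT 2 and 1. *Il1b*, which encodes interleukin 1 beta, passed with DESeq2 in *Lats1*-CKO tumors (5.07 to 15.4 CPM against 1.42 to 3.65 CPM in WT-PyMT, edgeR log2 fold change 1.82, standard error 0.55, DESeq2 adjusted p = 0.0284). Among 13 genes for the clearance of dying cells, 10 had higher estimates in *Lats2*-CKO and 7 in *Lats1*-CKO. *Mfge8*, a bridge between dying cells and phagocytes that mammary epithelium secretes in milk, was at 827.3 to 1179 CPM in WT-PyMT and 1216 to 5042 CPM in *Lats2*-CKO tumors (log2 fold change 1.47, standard error 0.53, edgeR adjusted p = 0.688), the highest being the library labelled *Lats2*-CKO 1. *Cd36*, a scavenger receptor that fat cells share, had a lower estimate in *Lats2*-CKO (log2 fold change -4.15, standard error 1.23, edgeR adjusted p = 0.688, DESeq2 adjusted p = 0.0240). *Elmo1*, an adaptor of engulfment, had a lower estimate in *Lats1*-CKO (log2 fold change -0.73, standard error 0.21, edgeR adjusted p = 0.315, DESeq2 adjusted p = 0.0478). None of these 13 genes passed with edgeR in either deletion. Of all genes 0.78% passed with DESeq2 in *Lats2*-CKO and 3.31% in *Lats1*-CKO.

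Of 13 other complement genes 8 had lower estimates in each deletion, with medians of -1.49 in *Lats2*-CKO and -0.19 in *Lats1*-CKO. At an unadjusted p under 0.05 with edgeR were 5 and 1 of them, all lower in estimate, against 7.08% and 11.3% of all genes. With libraries left out or histology as a covariate, 7 to 8 were lower in *Lats2*-CKO (medians -1.99 to -0.39). In *Lats1*-CKO 2 to 9 were lower (medians -0.73 to 0.29). *C3*, the central component, passed with DESeq2 in *Lats1*-CKO (72.1 to 146.0 CPM against 116.2 to 469.9 CPM, edgeR adjusted p = 0.293, DESeq2 adjusted p = 0.00866). In *Lats2*-CKO tumors the C1q chains were thus higher in estimate while *C3* was lower in estimate (log2 fold change -2.28, standard error 0.90, edgeR adjusted p = 0.688). *C3* was at 111.2 to 1260 CPM in WT-PyMT and 36.0 to 194.4 CPM in *Lats2*-CKO tumors, so that the groups overlapped. The complement list summed to 2360 CPM in WT-PyMT 14 and to 1008 and 688.7 CPM in WT-PyMT 2 and 1. Of the genes for the recruitment of monocytes 7 of 10 had lower estimates in *Lats2*-CKO and 4 of 10 in *Lats1*-CKO. With libraries left out or histology as a covariate, 3 to 7 were lower in *Lats2*-CKO (medians -1.10 to 0.48). In *Lats1*-CKO 2 to 4 were lower (medians 0.13 to 0.88). *Ly6c1*, which endothelium shares, passed with DESeq2 in *Lats1*-CKO (log2 fold change -1.06, standard error 0.26, edgeR adjusted p = 0.251, DESeq2 adjusted p = 0.0103). Of the enzymes that handle arginine beside *Arg1*, 6 of 10 and 6 of 9 measured had higher estimates. *Sms*, spermine synthase, passed with DESeq2 in *Lats1*-CKO (log2 fold change 0.75, standard error 0.19, edgeR adjusted p = 0.260, DESeq2 adjusted p = 0.00794). No gene of the complement, recruitment and arginine lists passed with edgeR in either deletion. Of all genes 3.31% passed with DESeq2 in *Lats1*-CKO.

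Markers of other leukocytes spanned wider ranges over the tumors. *Ptprc*, which encodes the antigen CD45 of all leukocytes, was at 1575 CPM in WT-PyMT 14, at 294.7 CPM in WT-PyMT 22 and between 18.0 and 79.3 CPM in the other 12 tumors. In WT-PyMT 14 *Csf1r* was at 82.7 CPM, within the range of the other tumors. *C1qa* (95.8 CPM), *C1qb* (81.6 CPM), *C1qc* (68.4 CPM), *Adgre1* and *Arg1* were there at their lowest of the *Lats2* experiment. These values of the C1q chains still lay within the range of the *Lats1* experiment. The 12 T and NK cell genes summed to 2558 CPM in WT-PyMT 14, 511.1 CPM in WT-PyMT 22 and 10.9 to 78.9 CPM elsewhere, and the 9 B and plasma cell genes to 1785, 481.7 and 0.738 to 143.5 CPM. The summed level of the 10 macrophage genes was 430.3 CPM in WT-PyMT 14, 714.9 CPM in WT-PyMT 22 and 391.8 to 989.4 CPM over all tumors.

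All 6 leukocyte genes and all 12 T and NK cell genes had lower estimates in both deletions, with medians of -3.32 and -4.47 in *Lats2*-CKO and -1.72 and -3.68 in *Lats1*-CKO. None passed with edgeR (4 and 10 in *Lats2*-CKO and 1 and 7 in *Lats1*-CKO were at an unadjusted p under 0.05) or with DESeq2, which gave some of them no adjusted p. Of all genes 7.08% reached that unadjusted level in *Lats2*-CKO and 11.3% in *Lats1*-CKO. Without WT-PyMT 14 none of the 6 and 2 of the 12 were lower in *Lats2*-CKO, and without WT-PyMT 22 none of the 6 and 1 of the 12 were lower in *Lats1*-CKO. Dendritic cell genes, some of which macrophages share, summed to 571.1 and 118.2 CPM in these tumors and 7.18 to 31.7 CPM elsewhere. Of 9 neutrophil genes measured 7 had higher estimates in *Lats2*-CKO (median log2 fold change 0.78, 1 at an unadjusted p under 0.05), and of 10 measured 9 had higher ones in *Lats1*-CKO (median 1.61, 2 at an unadjusted p under 0.05), none passing with edgeR. The medians were 0.24 without the library labelled *Lats2*-CKO 1 and 0.86 without *Lats1*-CKO 21. *S100a9*, a calcium-binding protein of neutrophils named here after its values were seen, passed with DESeq2 in *Lats1*-CKO, at a log2 fold change of 4.02 (standard error 0.88, edgeR adjusted p = 0.209, DESeq2 adjusted p = 6.95e-05). *S100a8*, its partner, was at 1.87 to 13 CPM in WT-PyMT and 7.11 to 33.6 CPM in *Lats2*-CKO tumors. In the *Lats1* experiment *S100a8* was at 9.74 to 12.2 CPM in WT-PyMT and 8.78 to 133.4 CPM in *Lats1*-CKO tumors, so that the groups overlapped. Its log2 fold change there was 1.82 (standard error 1.07, edgeR adjusted p = 0.546), and DESeq2 gave it no adjusted p. The 12 adipocyte genes had lower estimates in both deletions (medians -4.81 and -2.45). None passed with edgeR (12 and 3 at an unadjusted p under 0.05, against 7.08% and 11.3% of all genes). With DESeq2 10 and 2 passed, against 0.78% and 3.31% of all genes. They summed to 513.2 to 8374 CPM in adenomas and 32.8 to 909.9 CPM in carcinomas. They were highest in WT-PyMT 2, the tumor with the highest *Mrc1*, but almost as high in WT-PyMT 14, where *Mrc1* was at 9.43 CPM. The part that fat or lymphoid tissue in the samples has in these results was not tested. In bulk RNA, fewer macrophages and less of a transcript per macrophage cannot be told apart.

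**Figure D5:**
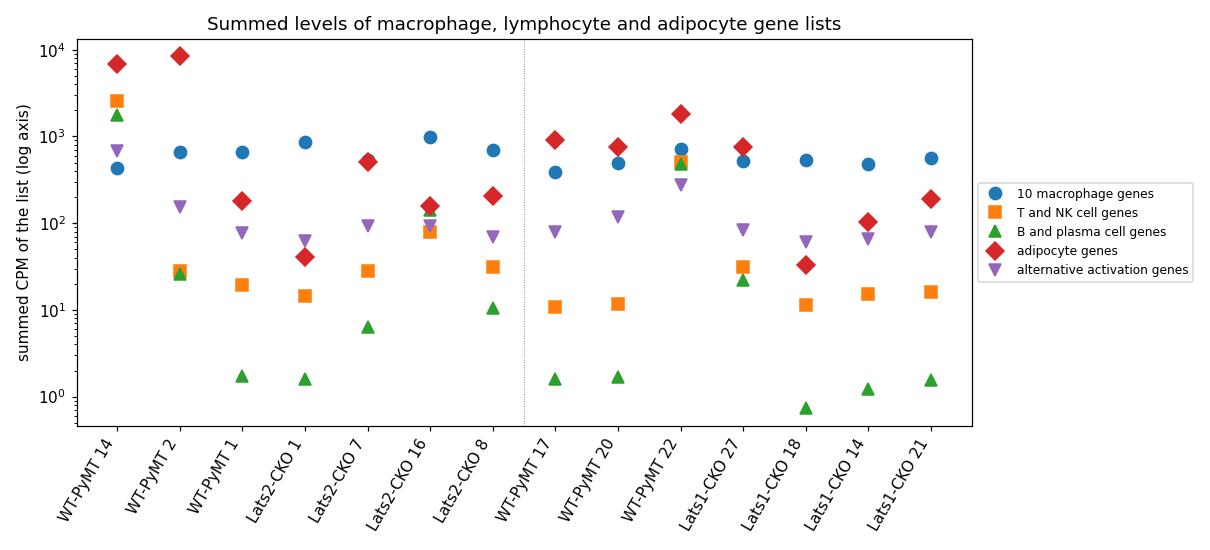
Summed CPM (vertical log axis) of the 10 macrophage genes and of T and NK cell, B and plasma cell, adipocyte and alternative activation genes in each tumor (horizontal axis, the dotted line parting the experiments). The macrophage genes stay between 391.8 and 989.4 CPM while the T and NK cell genes reach from 10.9 to 2558 CPM.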

How the data were processed

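RNA of 14 tumors, each labelled with genotype and histology, was analysed in 2 experiments of 7 libraries. The deposited values are raw counts per gene, which the authors made from single-end 60-bp reads of polyadenylated libraries (500 ng of total RNA) aligned to mm10 with STAR (version not given in the sources used here) and counted on RefSeq genes; genes with a sum of at least 5 counts were kept, and the lowest sum is 6. Totals were 18593864 to 31909282 counts. Deleted and WT-PyMT tumors of 1 experiment were compared by the edgeR 4.0.16 quasi-likelihood test in R 4.3.3 (TMM, Benjamini-Hochberg over all genes, threshold 0.05; standard error = absolute log2 fold change over the root of F), with DESeq2 1.42.0, the study's tool, as an alternative. The difference of changes and carcinoma against adenoma (groups as covariates) used all 14 libraries. CPM used joint TMM over 17232 genes; log2 CPM a prior count of 2. The procedure was tested on simulated counts with the same dispersion for every gene and no library that stood apart, unlike these data. Alternatives were RLE and upper quartile scaling, filterByExpr, a robust fit, histology as covariate, 1 fit of all libraries, WT-PyMT only and omission of libraries; the omissions and the histology covariate for gene lists and the omission of 2 libraries together were chosen after seeing the data. The 10 genes and the gene lists were chosen with earlier results of these data known. Named from each other list were the 2 genes with the highest mean and the 2 with the smallest p per genotype comparison, up to 4, plus *Spi1*, *Csf1*, *Il34* and *Ptprc*, and the 8 genes nearest the mean profile.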

Additional observations from a re-analysis of the deposited data

Results flagged for a closer look

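*Cd68* was at 39.6 CPM in *Lats2*-CKO 16, while *Lats2*-CKO 1, 7 and 8 were at 28, 26.2 and 27.6 CPM. The gap to the nearest tumor, as a share of the range of the group on the log2 scale, was 0.84, above the 95% limit of 0.829 of Dixon's test for 4 samples. Of 20 combinations of gene and deleted genotype that were examined this was the 1 found, and chance marks about 1 in 20.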

How the results depend on the processing

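None of the 10 genes passed the test in any of 69 alternatives over the 4 comparisons. Of their alternative log2 values 621 kept their sign and 69 changed it, all of them within estimates that did not pass, and the cause was not tested. *C1qb* and *C1qc* kept estimates above 0 in *Lats2*-CKO, between 0.44 and 0.73 and between 0.36 and 0.68 when each library in turn was left out. With histology as a covariate *Cd163* was at 0.22 and *Arg1* at -0.30 in *Lats2*-CKO and *C1qa* at 0.025 in *Lats1*-CKO, where it was at 0.00268 with upper quartile scaling and 0.012 with all 14 libraries in 1 fit. Between carcinoma and adenoma, *Csf1r*, *C1qb* and *C1qc* were at -0.024, -0.028 and -0.00230 without the adenosquamous carcinoma, *Csf1r*, *C1qa*, *C1qb* and *C1qc* at -0.26, -0.10, -0.21 and -0.32 in the 6 WT-PyMT tumors, and *Csf1r*, *C1qa*, *C1qb*, *C1qc* and *Arg1* at -0.17, -0.025, -0.17, -0.090 and -0.21 without WT-PyMT 14 and *Lats2*-CKO 7. With each library left out in turn, the log2 fold change in *Lats2*-CKO ranged from -0.10 to 0.29 for *Csf1r*, -1.58 to 0.33 for *Mrc1*, -0.48 to 0.73 for *Cd163* and -0.078 to 0.98 for *Arg1*. In *Lats1*-CKO it ranged from -0.34 to 0.095 for *Csf1r*, -0.11 to 0.17 for *Cd68*, -0.16 to 0.38 for *Cd163*, -0.14 to 0.11 for *C1qa*, -0.077 to 0.14 for *C1qb*, -0.35 to 0.052 for *C1qc*, -0.29 to 0.99 for *Arg1* and -0.093 to 0.54 for *Mertk*. The difference between the deletions ranged from -0.96 to 0.92 for *Mrc1*, -0.59 to 0.58 for *Cd163*, -0.83 to 0.59 for *Arg1* and -0.53 to 0.094 for *Mertk*, and the difference by histology from -0.22 to 0.19 for *Adgre1*, -0.15 to 0.17 for *Csf1r*, -0.12 to 0.15 for *C1qb* and -0.080 to 0.27 for *C1qc*. The count of all genes that passed depended on the tool: in *Lats2*-CKO it was 0 with edgeR, 138 with DESeq2 and 2 with all 14 libraries in 1 fit (0 to 57 with a library left out, 57 without WT-PyMT 1), in *Lats1*-CKO 4, 588 and 1, and 7 after filterByExpr (0 to 19, the highest without *Lats1*-CKO 21), for the difference 3 and 16 (1 to 5), and by histology 0 and 44. No paired analysis was made, because the labels used here do not give the litter of each tumor. The groups compared share fewer than 2 tumor numbers, and a shared number is not stated to mark a pair. The 3 or 4 tumors per group limit what could be detected.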
